A study of Mus musculus with 2 samples.

Results

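The 9 hepatocyte transcription factor genes described were Hnf4a, Cebpa, Cebpb, Foxa2, Foxa3, Nr1h4, Nr0b2, Nr5a2 and Prox1. They were taken by symbol from the deposited expression table of mouse liver, and all 9 were found among its 15348 listed genes. The control group was female NOG-TKm30 mice, aged 16 weeks, that received no ortho-toluidine (OTD, an aromatic amine), and RNA of 3 mice was pooled into 1 library. The OTD group was female NOG-TKm30 mice of the same age that received OTD at 0.6% for 1 week and at 0.3% for the next 3 weeks (4 weeks in all), and RNA of 5 mice was pooled into 1 library. All mice of both groups were of the NOG-TKm30 strain, that is, NOG mice with a cDNA of HSVtk mutant clone 30 whose expression the enhancer/promoter of the mouse transthyretin gene drives. The labels' treatment protocol names C57BL mice instead, and this was not resolved. With 1 library per group, the spread between mice or pools was not measured, no difference below has a replicate check and no p-value is given.

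HNF4A, a nuclear receptor that binds DNA as a homodimer, and C/EBP-alpha (Cebpa), a basic leucine zipper protein, keep genes of plasma proteins, lipoproteins and metabolic enzymes active in hepatocytes. The forkhead proteins FOXA2 and FOXA3 bind the same enhancers and can open closed chromatin. FXR (Nr1h4) is the bile acid receptor and induces SHP (Nr0b2), a nuclear receptor without a DNA-binding domain, which restrains bile acid synthesis by acting on LRH-1 (Nr5a2) and HNF4A. PROX1 is a homeobox protein of hepatocytes and lymphatic endothelium that acts as a corepressor of HNF4A and LRH-1.

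The stretches upstream of the transcript starts are shown for the 3 genes with the lowest ratios of OTD over control (Foxa3, Hnf4a and Nr0b2) and, for contrast, for Nr1h4, whose ratio was near 1. They come from RefSeq (GRCm38.p6), which matched all 9 genes with 14 transcript starts, and run 5′ to 3′ on the gene's strand. Capitals mark matches, on either strand, to motifs of HNF4 (CAAAGTCCA or CAAAGGTCA), C/EBP (TTGCNNAA), FOXA (TGTTTNC), LRH-1 (CAAGGNCA) and FXR (an inverted repeat of AGGTCA with N between the arms). A match is a run of letters, not a shown binding site.
Hnf4a, upstream start, plus strand, chr2:163506607-163506807: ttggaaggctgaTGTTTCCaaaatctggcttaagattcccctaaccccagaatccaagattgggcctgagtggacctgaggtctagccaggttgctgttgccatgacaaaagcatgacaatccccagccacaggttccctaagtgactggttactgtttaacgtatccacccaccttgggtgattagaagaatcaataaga
Foxa3, minus strand, chr7:19023540-19023789: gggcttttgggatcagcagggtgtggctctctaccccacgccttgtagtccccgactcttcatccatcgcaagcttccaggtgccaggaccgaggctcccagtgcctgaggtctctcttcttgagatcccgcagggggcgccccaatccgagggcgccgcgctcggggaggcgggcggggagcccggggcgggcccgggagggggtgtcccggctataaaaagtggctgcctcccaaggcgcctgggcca
Nr0b2, plus strand, chr4:133553126-133553375: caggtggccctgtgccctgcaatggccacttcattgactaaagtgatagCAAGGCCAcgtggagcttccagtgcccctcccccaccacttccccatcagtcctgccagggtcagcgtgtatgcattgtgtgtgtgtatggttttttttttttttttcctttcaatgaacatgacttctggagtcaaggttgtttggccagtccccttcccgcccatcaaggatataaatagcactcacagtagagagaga
Nr1h4, minus strand, chr10:89506659-89506908: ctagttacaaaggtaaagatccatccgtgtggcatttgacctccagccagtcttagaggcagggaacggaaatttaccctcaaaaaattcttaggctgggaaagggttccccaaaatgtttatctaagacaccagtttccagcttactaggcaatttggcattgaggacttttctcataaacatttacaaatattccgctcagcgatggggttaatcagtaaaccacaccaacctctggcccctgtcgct

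The upstream Hnf4a window, shortened to 201 bases because an annotated untranslated region begins there, held a FOXA match, and 17.8% of all 32851 windows of 250 bases held this motif. The window of the downstream Hnf4a start, of 250 bases and not printed above, held 0 matches to the 6 motifs. The Nr0b2 window held a match to the LRH-1 motif at bases -201 to -194 counted from the start (5.53% of all windows). The Foxa3 and Nr1h4 windows held no match to any of the 6 motifs. The Nr1h4 window lies inside the annotated span of the gene, which reaches further upstream, to 89533585. The stretch before that end was not searched. Of the 14 windows of the 9 genes, 2 held the FOXA motif (the other in Prox1), 1 the LRH-1 motif, 1 the C/EBP motif (9.56% of all windows; in Nr5a2), and 0 an HNF4 motif (0.384% and 0.426% of all windows) or the FXR motif (0.00609%). The deposited data give 1 value per gene, so reads from the separate transcript starts of Hnf4a, Foxa2, Nr5a2 and Prox1 were not told apart. Whether the Hnf4a reads came from the start with the FOXA match or from the downstream start is therefore not known.

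Levels are the authors' normalized signal, CPM after division by a library scaling factor (so that libraries of unequal depth can be compared), and all values were whole multiples of 1 unit per library, taken here as 1 read. RSEM, which estimates counts that need not be whole, is among the tools the submitters name, so whether these units are read counts or rounded estimates is not known, and the read numbers and intervals rest on taking them as reads. The control library held 13569189 reads and the OTD library 14685193. Ratios are OTD over control. Each carries a 95% interval (exact, Clopper-Pearson) from how a gene's reads divide between the libraries, which covers counting error only. A log2 ratio was computed with a pseudocount of 1, and genes with a mean level of at least 10 in the 2 libraries were called measured (7602 genes, the 9 factors among them). The liver marker Alb made up 8.01% of all reads in control and 7.10% in OTD. Rn45s, the ribosomal RNA precursor, made up 1.47% and 2.66%.

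Foxa3, Hnf4a and Nr0b2 were lower in the OTD library by 1.73-fold, 1.42-fold and 1.37-fold, and Prox1 by 1.13-fold. Foxa2 had the same fold as Prox1, but the interval of its ratio (0.750 to 1.05) held 1. Cebpa and Cebpb stood at 0.800 and 0.811 of their control levels, and Nr1h4 and Nr5a2 had ratios of 1.03 and 1.04. Of the 9 log2 ratios, 7 were below 0, where 51.6% of all measured genes were below 0, and the median of the 9 was -0.30 against -0.0063 over all measured genes. At or below 0.8 of control by the log2 ratio were 3 of the 9, against 4.95% of measured genes, and 1 of the 9 (Foxa3) was at least 1.5-fold lower, against 0.908%. None was at least 2-fold lower (0 of 9; 0.210% of measured genes), and 0 of 9 stood 25% or more above control (7.10%). Of the factors past the line of 0.8, Nr0b2 was the nearest to the line, with a log2 ratio of -0.45. Cebpa, with -0.32, stood just short of the line. The 9 were chosen with earlier results of these data known, so their counts and median beside all measured genes are descriptive only. Fewer hepatocytes in the tissue and less RNA of a gene per hepatocyte cannot be told apart in such libraries.

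**Figure D1:**
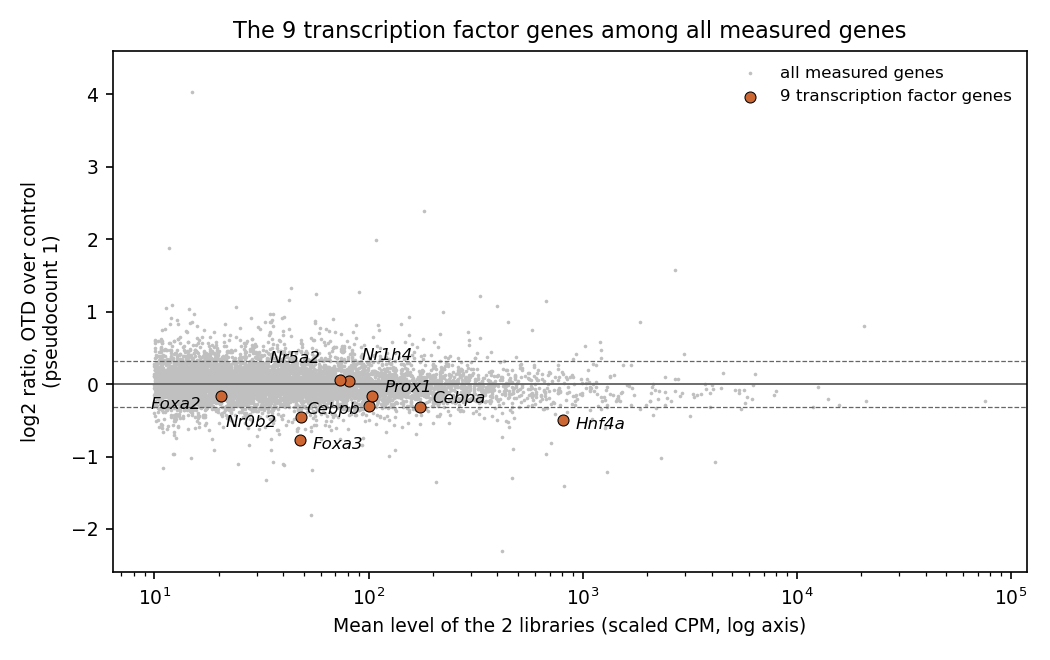
Log2 ratio of OTD over control (pseudocount 1, vertical axis) against the mean level of the 2 libraries (scaled CPM, log horizontal axis) for 7602 measured genes in grey and the 9 factor genes in orange; dashed lines mark 0.8 of control and 25% above it. Foxa3 and Hnf4a lie at the lower edge of the cloud, with 0.368% and 1.39% of measured genes as low or lower, while Nr1h4 and Nr5a2 lie inside it.

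Hnf4a had a level of 948 in control (12620 reads) and 669.9 in OTD (10029 reads). Its ratio was 0.707 (0.688 to 0.725), and 1.39% of the measured genes had a log2 ratio as low or lower. It was the factor with the most reads, and it made up 57.4% of the summed level of the 9 in control and 53.0% in OTD. That sum was 1652 in control and 1264 in OTD, a ratio of 0.765 (0.750 to 0.780). Hnf4a (ENSMUSG00000017950.16) lies on chromosome 2 at 163506808 to 163572910 in GRCm38, plus strand. The antisense gene Hnf4aos overlaps it on the minus strand, and the use of strand in counting is not given in the sources used here. Reads assigned to Hnf4aos gave it a level of 3.83 (control) and 4.21 (OTD). Whether antisense reads entered the Hnf4a level was not tested.

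Cebpa stood at 193 in control (2573 reads) and 155 in OTD (2316 reads), a ratio of 0.800 (0.756 to 0.847). Cebpb, the family member that also serves the acute phase response and is expressed in macrophages, stood at 110.4 (1470 reads) and 89.5 (1340 reads), a ratio of 0.811 (0.752 to 0.873). Both were lower by about the same factor. The proportion of 2 genes within a library does not depend on the scaling between libraries: Cebpb made up 36.4% (34.9 to 37.9) of the reads of the pair in control and 36.7% (35.1 to 38.2) in OTD. The odds ratio between libraries was 1.01 (0.922 to 1.11, exact conditional interval). Hnf4a made up 83.1% (82.5 to 83.7) of the reads of Hnf4a and Cebpa in control and 81.2% (80.5 to 81.9) in OTD, an odds ratio of 0.883 (0.829 to 0.940), so Hnf4a was lower than Cebpa relative to control beyond counting error. Cebpa lies on chromosome 7 at 35119293 to 35121928 and Cebpb on chromosome 2 at 167688915 to 167690418, both on the plus strand. The gene Tmem189, which overlaps Cebpb on the minus strand, stood at 6.31 in control and 5.08 in OTD.

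Of the forkhead genes, Foxa3 had the lowest ratio of the 9 factors. It stood at 60.9 in control (811 reads) and 35.1 in OTD (526 reads), a ratio of 0.577 (0.516 to 0.644), and 0.368% of measured genes were as low or lower. Its interval overlapped that of none of the other 8 factors. Foxa2, the least abundant of the 9 in reads, stood at 21.8 (290 reads) and 19.3 (289 reads). Its ratio of 0.886 had an interval of 0.750 to 1.05, so a difference was not detectable at this depth. Foxa2 therefore took a larger share of the reads of the pair in OTD, 35.5% (32.2 to 38.9), than in control, 26.3% (23.8 to 29.0), with an odds ratio of 1.54 (1.26 to 1.88). Their relative Foxa1, the other hepatic member of the family, stood at 18.6 in control and 19.9 in OTD, a ratio of 1.07 (0.900 to 1.27). Foxa3 lies on chromosome 7 at 19013284 to 19023538 and Foxa2 on chromosome 2 at 148042877 to 148046969, both on the minus strand.

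**Figure D2:**
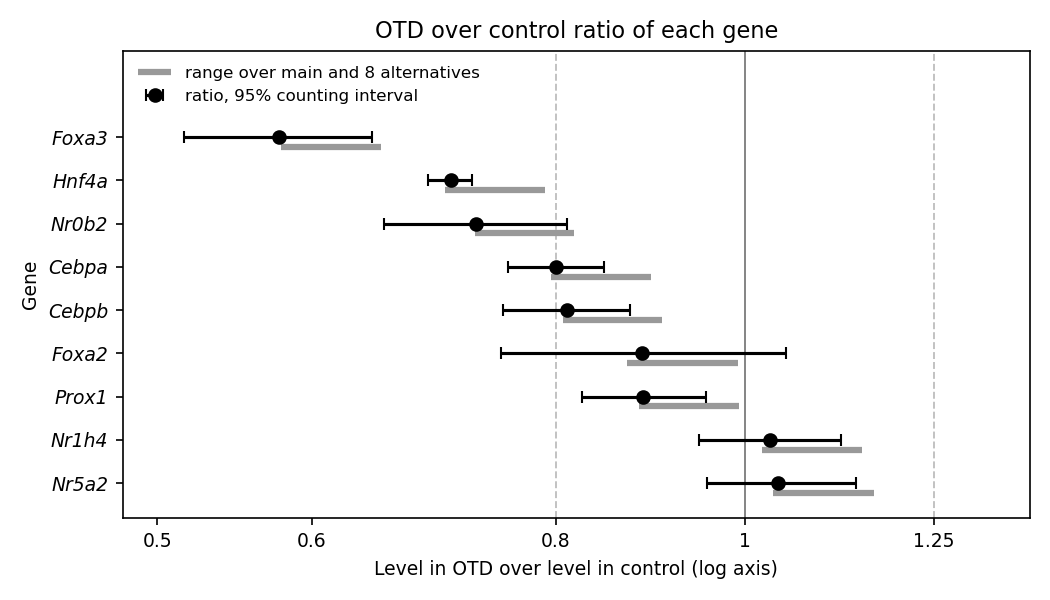
Ratio of the level in OTD to that in control for each of the 9 genes (log horizontal axis); points and black bars give the ratio and its 95% counting interval, grey bars the range of the log2 ratio with pseudocount, drawn as a ratio, over the main setting and 8 alternatives, and dashed lines 0.8 of control and 25% above it. Foxa3 (0.577) stands apart to the left, and the intervals of Nr1h4 and Nr5a2 hold 1.

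Within the bile acid sensing branch, the receptor and its induced partner differed. Nr1h4 stood at 79.9 in control (1064 reads) and 82.3 in OTD (1232 reads), a ratio of 1.03 (0.948 to 1.12). Nr0b2 stood at 55.9 (744 reads) and 40.7 (609 reads), a ratio of 0.728 (0.653 to 0.811). Nr0b2 made up 41.2% (38.9 to 43.5) of the reads of this pair in control and 33.1% (30.9 to 35.3) in OTD, an odds ratio of 0.707 (0.616 to 0.811). Nr5a2, which binds and activates the Nr0b2 promoter, stood at 72.0 (959 reads) and 75.2 (1126 reads), a ratio of 1.04 (0.957 to 1.14). Nr5a2 and Nr1h4 kept their proportion within counting error, with Nr5a2 at 47.4% (45.2 to 49.6) and 47.8% (45.7 to 49.8) of the pair and an odds ratio of 1.01 (0.899 to 1.14). Nr1h4 lies on chromosome 10 at 89454234 to 89533585 (minus strand), Nr0b2 on chromosome 4 at 133553376 to 133556536 (plus strand) and Nr5a2 on chromosome 1 at 136842571 to 136960448 (minus strand).

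Prox1 stood at 109.9 in control (1463 reads) and 97.5 in OTD (1460 reads), a ratio of 0.887 (0.825 to 0.955). Relative to Hnf4a it was higher in OTD, with 10.4% (9.89 to 10.9) of the reads of the pair in control and 12.7% (12.1 to 13.3) in OTD, an odds ratio of 1.26 (1.16 to 1.36). Of 4 markers of lymphatic endothelium, the other cell type known for Prox1, Pdpn, Ccl21a and Mmrn1 stood below 1 in both libraries. Flt4, which sinusoidal endothelium also expresses, stood at 57.2 in control and 56.1 in OTD. Prox1 lies on chromosome 1 at 190118035 to 190170714, minus strand.

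**Figure D3:**
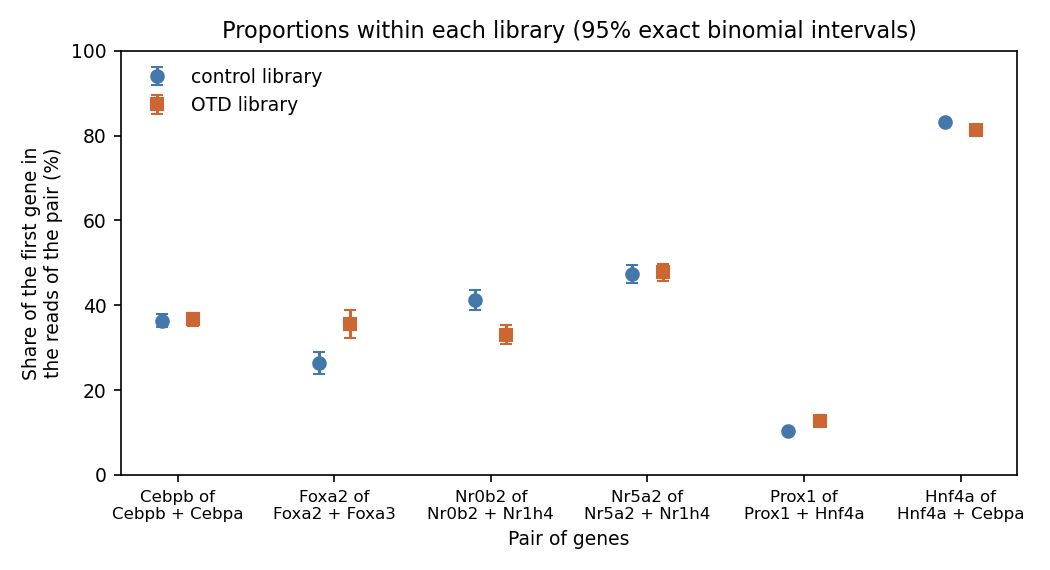
Share of the first-named gene in the summed reads of a pair (percent, vertical axis) in the control library (circles) and the OTD library (squares) for 6 pairs of factor genes, with 95% exact binomial intervals. Foxa2 gains on Foxa3 (26.3% to 35.5%) and Nr0b2 loses to Nr1h4 (41.2% to 33.1%), while the shares of Cebpb and Nr5a2 stay within counting error.

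Among the 36 pairs of factors, the counting intervals of the ratios did not overlap in 22. No such count was made for pairs of other genes. Intervals narrow as reads rise, so the count is not shown to be particular to the factors. Hnf4a overlapped with Nr0b2 alone, and Cebpa and Cebpb each overlapped with Foxa2, Nr0b2, Prox1 and each other. Foxa2, with the fewest reads, did not overlap with Hnf4a and Foxa3 and overlapped with the other 6. Few stretches of these genes recur in other genes: of the 50-base stretches of each longest transcript, 0% occurred in transcripts of other genes for 8 factors and 0.0640% for Nr5a2.

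Per kilobase of the longest annotated transcript, Hnf4a had the highest level of the 9, at 217 in control and 154 in OTD. Cebpa (73.6 and 58.9) and Cebpb (73.4 and 59.5) followed, and did not differ from each other beyond counting error in either library. Nr0b2 stood above Nr1h4 in control (49.4 against 39.7 per kilobase), but in OTD the values were 35.9 and 40.9, with intervals that overlapped. Foxa3 came next with 29.9 in control and 17.2 in OTD, then Nr5a2 (15.2 and 15.9), Prox1 (13.9 and 12.3) and Foxa2 (10.2 and 9.07). In OTD the interval of Foxa3 overlapped that of Nr5a2, and in control that of Nr5a2 overlapped that of Prox1. With the mean length of protein-coding transcripts instead, all 9 kept their place in control, and 4 of the 9 did in OTD, where Foxa3 (17.2) stood below Nr5a2 (30.2) and Prox1 (20.4).

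**Figure D4:**
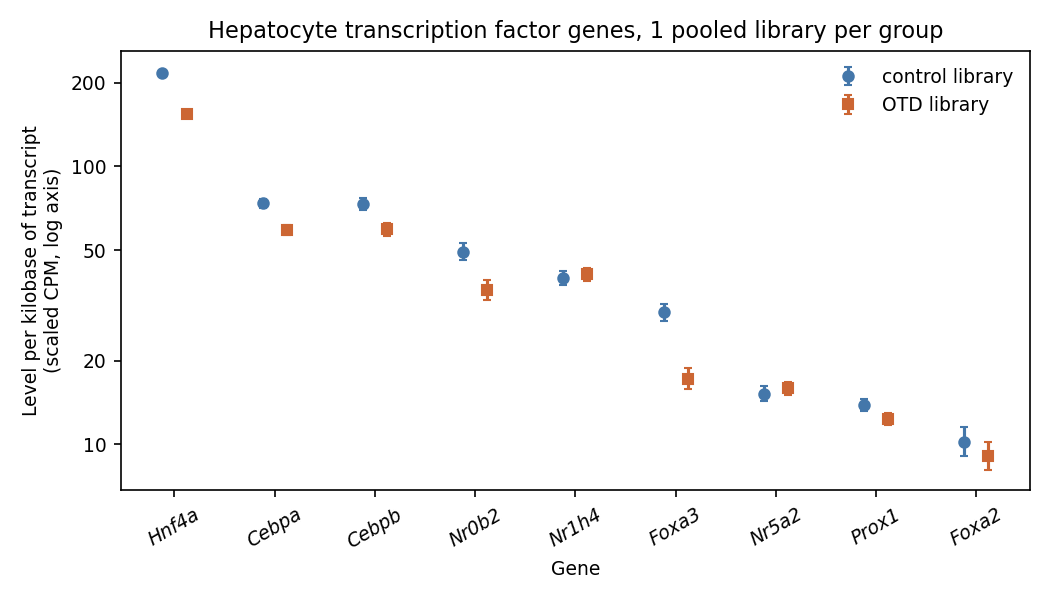
Level per kilobase of the longest transcript (scaled CPM per kilobase, log vertical axis) of the 9 genes, ordered by control; circles are the control library, squares the OTD library and bars 95% exact Poisson counting intervals. Hnf4a is highest in both libraries (217 and 154), and Foxa3 shows the widest gap between them (29.9 and 17.2).

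Other factors of the hepatocyte had a median close to that of all measured genes. Of 34 further factors and partner receptors, 31 were measured, with 17 below 0 (51.6% of all measured genes were), 14 above and a median of -0.0045. At or below 0.8 of control were 3 of the 31, against 4.95% of measured genes. Tbx3, a factor of pericentral hepatocytes, had levels of 78.9 and 52.5 with a ratio of 0.666 (0.606 to 0.731), and Gata6, expressed mainly in non-parenchymal cells, had 15.7 and 10.2 with 0.647 (0.521 to 0.801). The third was the xenobiotic receptor gene Nr1i3 (CAR), named after its value was seen, with 99.5 and 73.7 and a ratio of 0.741 (0.683 to 0.803). Another 2 stood 25% or more above control, against 7.10% of measured genes. Mlxipl (ChREBP, the glucose-responsive activator of lipogenesis) stood at 139 and 199, a ratio of 1.43 (1.35 to 1.52), and Onecut1 (HNF6) at 11.8 and 15.0, a ratio of 1.27 (1.03 to 1.57). Rxra, the partner receptor of FXR, stood at 494 and 453, a ratio of 0.918 (0.887 to 0.950).

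Of 10 paralogs of the factors, 6 were among the listed genes and 2 were measured. Cebpg had levels of 61.9 and 55.5 with a ratio of 0.897 (0.813 to 0.989), and Foxa1 is given above. Of 17 coregulators, 15 were measured, 9 below 0 and 6 above, with a median of -0.006, and 0 were past either line. Over all measured genes, 51.6% were below 0, 4.95% past the lower line and 7.10% past the upper. Ppargc1a, a coactivator of HNF4A, stood at 21.4 in control and 20.7 in OTD, a ratio of 0.967 (0.821 to 1.14). The corepressor gene Ncor1, the most abundant, stood at 206 and 212. Among the measured ones, the lowest ratios were those of Sirt1 at 0.847 (0.706 to 1.01) and Ncoa1 at 0.881 (0.783 to 0.992), and the highest those of Nrip1 at 1.16 (1.00 to 1.34) and Med1 at 1.10 (0.988 to 1.22). Ppargc1b, with a mean level just under 10 and named after its value was seen, had 147 reads in control and 103 in OTD, a ratio of levels of 0.623 (0.480 to 0.807).

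Known targets of the factors went both ways. Over all measured genes, 51.6% were below 0, 4.95% at or below 0.8 of control and 7.10% at 25% or more above it. Of 23 HNF4A targets, all measured, 17 were below 0 and 6 above, with a median of -0.085, 1 at or below 0.8 of control and 1 at 25% or more above it. Agt (angiotensinogen) had levels of 961 and 737 with a ratio of 0.767 (0.747 to 0.786), F12 (coagulation factor XII) 558 and 448 with 0.802 (0.776 to 0.829), and Apob, the most abundant, 14931 and 12967 with 0.868 (0.863 to 0.874). Pklr (liver pyruvate kinase) had 137 and 182 with a ratio of 1.33, and Cyp8b1, which is also restrained by SHP, had the next highest ratio of the list. Of 14 C/EBP targets, 6 were below 0 and 8 above, with a median of 0.11. The complement gene C3 stood at 0.800 (0.795 to 0.805) of its control level, while Igfbp1 stood at 253 and 538 and Saa1 at 18.9 and 26.7. Of 8 measured FOXA targets, 7 of which are also C/EBP targets, 4 were below 0 and 4 above. Tdo2 (tryptophan dioxygenase) was the lowest, at 849.6 and 639 with a ratio of 0.753 (0.732 to 0.773). The highest was Igfbp1, whose levels are given above, with a ratio of 2.12 (2.04 to 2.21), and next came G6pc at 1049 and 1262.

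Of 14 listed genes that FXR induces, 13 were measured, 8 below 0 and 5 above, with a median of -0.094. Of the 13, 4 were at or below 0.8 of control and 1 at 25% or more above it. Over all measured genes, 51.6% were below 0, and 4.95% and 7.10% were past these lines. Abcb4, the phospholipid exporter of the bile canaliculus, stood at 526 in control and 365 in OTD, a ratio of 0.694 (0.670 to 0.720). Nr0b2, C3 and Osgin1 (129.9 and 95.2; named after its value was seen) were the other 3. The bile salt export pump gene Abcb11 stood at 813 and 762, a ratio of 0.937 (0.913 to 0.962), and Pltp at 23.4 and 30.5, a ratio of 1.30 (1.13 to 1.51). Sdc1 (syndecan 1) had the next highest ratio, 1.16 (1.11 to 1.21), with 298 and 344. Of the genes that SHP restrains, Cyp8b1 (sterol 12-alpha-hydroxylase) stood at 262 and 315, a ratio of 1.20 (1.15 to 1.26), Cyp7a1 at 143 and 129 (0.898, 0.843 to 0.958) and the bile acid importer gene Slc10a1 at 491 and 486 (0.990, 0.957 to 1.02). Of 11 LRH-1 targets, 7 were below 0 and 4 above, with a median of -0.084. Scarb1, the HDL receptor gene, stood at 276 and 205, a ratio of 0.742 (0.707 to 0.779), Fads1 at 655 and 738, and Apoa1, the most abundant, at 5599 and 5145.

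**Figure D5:**
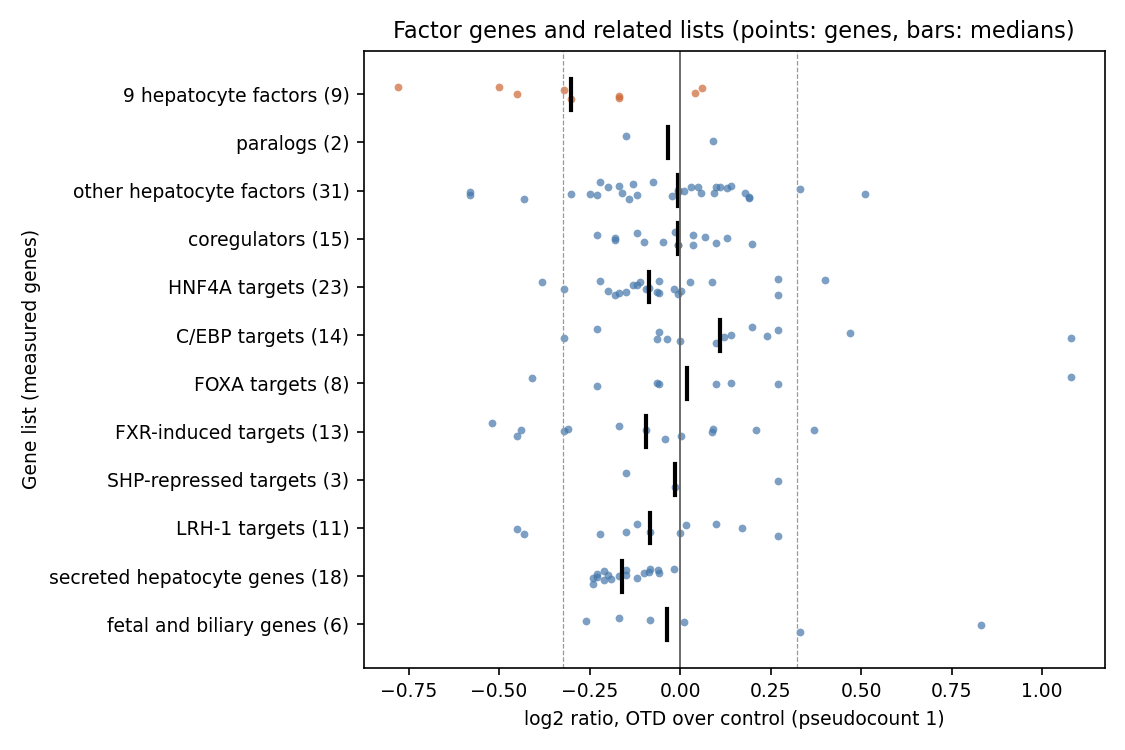
Log2 ratio of OTD over control (pseudocount 1, horizontal axis) of each measured gene of 12 lists, with the number of measured genes in brackets; points are genes, thick bars medians and dashed lines 0.8 of control and 25% above it. The 9 factors have the lowest median (-0.30), and the genes of secreted plasma proteins all lie between -0.24 and -0.018. The lists were chosen with earlier results of these data known, so the order of their medians is descriptive only.

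Genes of secreted plasma proteins, the main output of hepatocytes, were all lower by a small amount. All 18 were below 0 (51.6% of all measured genes were), with a median of -0.16 and a range of -0.24 to -0.018. Past either line were 0 of them, against 4.95% and 7.10% of measured genes. These genes are abundant, and with a running median over level subtracted their median was -0.093, and that of the HNF4A targets -0.023. The lowest of the 18 were Trf (transferrin, 22723 and 19235) and Vtn (vitronectin, 2239 and 1899), and the highest was Apoa2 (6317 and 6239). Alb stood at 81661 in control and 69694 in OTD, a ratio of 0.853 (0.851 to 0.856), and Ttr, whose promoter drives the transgene and which HNF4A, C/EBP and FOXA proteins activate, at 4514 and 4338, a ratio of 0.961 (0.950 to 0.972). When the libraries were scaled so that these 18 genes had a median log2 ratio of 0, the ratio became 0.646 (0.577 to 0.721) for Foxa3, 0.791 (0.770 to 0.812) for Hnf4a, 0.815 (0.731 to 0.908) for Nr0b2, 0.896 (0.847 to 0.948) for Cebpa and 0.907 (0.842 to 0.978) for Cebpb. Foxa2 (0.992) and Prox1 (0.993) then had intervals that held 1, and those of Nr1h4 (1.15, from 1.06) and Nr5a2 (1.17, from 1.07) lay above 1. With equal totals of reads apart from Rn45s, the interval of Prox1 (0.933, 0.868 to 1.00) also held 1 and that of Nr5a2 (1.10, 1.01 to 1.20) lay above it, while the other 7 stayed on the side they had. Scaling to the secreted genes raised the median log2 ratio of all measured genes by 0.16, to 0.15, and the part of a change in scale in the factors' ratios was not tested further.

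Genes of the fetal liver and of bile ducts were mostly too low to compare. Of 16 listed, 6 were measured, 3 below 0 and 3 above. Prom1 stood at 9.02 in control and 16.8 in OTD, a ratio of 1.86 (1.49 to 2.33), and Pkm at 15.2 and 19.4 (1.28, 1.06 to 1.54), while Sox9 stood at 17.5 and 14.4 (0.824, 0.682 to 0.996), Vim at 18.9 and 16.6 and Spp1 at 25.5 and 24.0. The fetal marker Afp had 4 reads in control and 7 in OTD.

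Markers of other liver cells were summed by cell type. The summed level of 10 Kupffer cell markers was 411 in control and 382 in OTD (ratio 0.931, 0.897 to 0.967). All 7 measured ones were below 0, against 51.6% of all measured genes. Those not measured, named after their values were seen, were Marco (ratio 1.18, 0.911 to 1.53), Cd68 (1.28, 0.987 to 1.68) and Timd4 (0.855, 0.614 to 1.19). The summed level of 8 sinusoidal endothelial markers had a ratio of 0.945 (0.915 to 0.976). That of 9 stellate cell markers was 762 and 739 (0.971, 0.945 to 0.997). Of these, 1 was at or below 0.8 of control (Lrat, 32.6 and 24.9) and 1 at 25% or more above it (Col3a1, 35.2 and 44.6), both named after their values were seen. The sums were 46.3 and 43.3 for 6 cholangiocyte markers (0.935, 0.836 to 1.05), with the defining Krt19 at 1.58 and 2.0 and Epcam below 1 in both libraries, and 311 and 387 for 5 erythroid genes (interval of the ratio 1.20 to 1.30). Among the erythroid genes Hba-a2, named after its value was seen, stood at 80.6 in control and 142 in OTD, a ratio of 1.76 (1.64 to 1.90), which on the log2 scale (0.81) is a larger difference than that of any of the 9 factors. The other 3 measured ones, Hba-a1, Hbb-bt and Alas2, had ratios of 1.07, 1.05 and 1.06. Hba-a1 and Hba-a2 are near-identical copies, so how reads were divided between them is uncertain. Of 3 listed pancreatic acinar markers, which would bring in Nr5a2 and Foxa2, Cela1 stood at 9.17 and 9.95 and Cela2a and Amy2a5 below 1, Amy2a5 at 0 in OTD. The neutrophil and monocyte markers summed to 34.9 and 39.2, nearly all from Lyz2, and 1 lymphocyte marker, Cd4, was listed, at 1.73 and 1.07. The part of these cells in the ratios of the 9 factors was not tested.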

How the data were processed

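Liver RNA of the 2 pools was measured by RNA sequencing. Ribosomal RNA was depleted and a directional kit used on 200 ng of RNA, per the labels' protocols. The deposited table holds 1 normalized signal per gene symbol and library. The tools and build named are, per the submitters' processing notes, mm10, edgeR, RSEM, Bowtie2 and Trimmomatic 0.38, with no role or order. How genes were annotated and filtered, and whether strand was used, is not given in the sources used here. All values (100.0% in each column, relative tolerance 1e-06) were whole multiples of that of 1 read. These units were taken as reads and used for intervals, although RSEM estimates rounded to whole numbers would look the same. A count test was not run on them, because 1 library per group leaves no residual degree of freedom.

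Column names were matched to the groups by Ctrl and OTD, and the labels leave the word Wild in them unexplained. Scaling factors were 0.981 for control and 1.02 for OTD, and 3 reads equal a level of 0.225 and 0.200. The members and gene lists were chosen with earlier results of these data known. Named genes were the 9 factors and, from each list of factors and targets, measured genes past 1.5-fold, the 2 highest and 2 lowest log2 ratios and the most abundant, plus Alb, Ttr, Rn45s, Cyp7a1, Cyp8b1, Abcb11, Rxra and Ppargc1a. A gene of the lists and a motif are not reported here. GENCODE M21 (GRCm38, the mm10 assembly) gave positions and lengths, and motifs were searched in the stretch of up to 250 bases before each RefSeq start. On reads simulated for OTD over control, 95.0% of intervals over 7602 genes contained the fold used to simulate. These reads were drawn with counting error alone and a known scale, as the intervals assume. The share therefore checks the computation only and says nothing about spread between mice or pools, or about error in scaling. Alternatives changed the pseudocount, the scaling, the filter and the length. Software was scipy 1.17.1, numpy 2.4.6, matplotlib 3.10.9 and pandas 2.3.3 under Python 3.11.15.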

Additional observations from a re-analysis of the deposited data

How the results depend on the processing

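No paired analysis was possible because each group had 1 library. For the same reason no library could be left out. No log2 ratio of the 9 factors changed sign under the 8 alternatives of pseudocount, scaling and level trend, and 61 of 72 values stayed within the counting interval. Hnf4a ranged from -0.51 to -0.34, Foxa3 from -0.79 to -0.62, Nr0b2 from -0.46 to -0.29, Cebpa from -0.33 to -0.16, Cebpb from -0.31 to -0.14, and the median of the 9 from -0.31 to -0.14. The upper ends came from scaling to the secreted plasma protein genes, which also turned the medians of the HNF4A (0.078), FXR (0.069) and LRH-1 (0.078) target lists above 0.

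At a mean level of at least 50, Foxa2, Foxa3 and Nr0b2 dropped out, leaving 1 factor at or below 0.8 of control and 0 at least 1.5-fold lower. Against 3 factors at or below 0.8 in the main setting, scaling to the secreted genes gave 2 and scaling to the same upper quartile gave 4. Counts over all measured genes depended on the setting. With a pseudocount of 10, 206 were at or below 0.8 of control and 292 at 25% or more above it, 35 at least 1.5-fold lower and 58 higher, and 10 at least 2-fold lower. Scaling to the same total gave 242 at or below 0.8 and 45 at least 1.5-fold lower; without Rn45s it gave 223 at or below 0.8, 865 at 25% or more above control and 43 lower at 1.5-fold. Scaling to the secreted genes gave 121 and 1491 past the same lines, 34 and 286 at 1.5-fold, and 9 and 36 at 2-fold. A mean level of at least 50 gave 151 and 163, 30 and 43, and 9 and 8, as fewer genes entered. No filter gave 1116 and 1668, 190 and 383, and 26 and 44, as more entered. The cause of the shifts with pseudocount and scaling was not tested. By mean coding transcript length, 4 of the 9 factors kept their place in the order in OTD. Depth limits Foxa2 most, with 290 and 289 reads.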
